A study of Mus musculus with 18 samples.

Results

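The genes described here are 10 genes of inflammatory cell death, namely *Nlrp3*, *Pycard*, *Casp1*, *Casp4*, *Casp12* and *Gsdmd* of the inflammasome and pyroptosis, and *Casp8*, *Ripk1*, *Ripk3* and *Mlkl* of the death receptor and necroptosis branch. They were found by symbol among the 20615 genes of the deposited table, where each had 1 row, and all 10 passed the filter on low counts that left 15789 genes for testing. RNA-seq was performed on bone marrow-derived macrophages (BMDMs), which are macrophages grown from bone marrow, of female mice aged 7 to 12 weeks. Bone marrow cells were cultured for 7 days in L929 supernatant, a source of M-CSF. B6 denotes C57BL/6 mice, and SjSS denotes C57BL/6.NOD-*Aec1Aec2*, a Sjögren's syndrome model in which the NOD intervals *Idd3* (*Aec1*) and *Idd5* (*Aec2*) were bred onto B6. Each strain had untreated BMDMs (control), BMDMs fed apoptotic cells (AC) and BMDMs stimulated with CpG, a DNA oligonucleotide that a Toll-like receptor senses, with 3 samples in each of the 6 groups. The ACs were thymocytes killed with dexamethasone, offered at 5 per BMDM for 2 h and washed off, with 3 h more in culture by the labels. The paper's methods give a longer culture after the wash, and its results and first figure legend give 3 h. The legend does not set CpG apart from ACs in this step. CpG was used at 1 µM for 6 h, so the treatments differed in time as well as in kind. The paper's first figure legend gives as many mice per strain as there were samples in a group. Cells of a mouse may therefore be in every group of its strain, but which samples share a mouse is not stated. Nor is it stated from which strain the thymocytes of each sample came. The tests treated the samples as independent, so the p values measure the spread between these samples.

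An inflammasome is a cytosolic complex in which a sensor such as NLRP3 gathers the adaptor ASC, encoded by *Pycard*, and caspase-1. Active caspase-1 matures interleukin-1β and interleukin-18 and cuts gasdermin D, whose fragment forms pores in the plasma membrane, a lytic death called pyroptosis. Caspase-11, the product of mouse *Casp4*, cuts gasdermin D on contact with cytosolic lipopolysaccharide. When caspase-8 is not active, RIPK1 and RIPK3 can instead activate MLKL, which ruptures the membrane in necroptosis. In macrophages, *Nlrp3* and *Casp4* are known as genes whose transcription is raised by a first, priming signal, whereas the activation of these proteins is set after translation and was not measured by RNA-seq.

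The 3 inflammatory caspase genes lie next to each other on chromosome 9 of mm10, on the + strand, in a stretch of 74.5 kb. *Casp1* is at chr9:5298517-5307265, *Casp4* at chr9:5308828-5336783 and *Casp12* at chr9:5345430-5373032, and their coordinates do not overlap. *Nlrp3* is at chr11:59541568-59566956 and *Mlkl* at chr8:111311797-111338177 on the − strand. To show the sequence in front of the 5 genes that rose past the fold threshold with ACs in SjSS BMDMs, RefSeq windows of the bases before each gene's start (GRCm38.p6, the assembly of mm10) are printed 5′ to 3′ on the strand of the gene, ending before the first base of the gene in the deposited table. They cover chr11:59541319-59541567 (*Nlrp3*), chr9:5298267-5298516 (*Casp1*), chr9:5308599-5308827 (*Casp4*), chr9:5345226-5345429 (*Casp12*) and chr8:111338206-111338455 (*Mlkl*). Capitals mark, in *Casp4*, a spelling of the NF-kB site (GGG, 3 bases of any kind, TTCC, or its reverse complement) and, in *Casp12*, the gamma-activated sequence bound by STAT proteins (TTC, 3 bases of any kind, GAA).
Nlrp3: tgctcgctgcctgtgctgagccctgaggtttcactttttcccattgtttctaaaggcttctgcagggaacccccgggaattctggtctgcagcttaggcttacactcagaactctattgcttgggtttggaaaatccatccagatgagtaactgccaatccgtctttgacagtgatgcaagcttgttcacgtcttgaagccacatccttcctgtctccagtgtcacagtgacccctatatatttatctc
Casp1: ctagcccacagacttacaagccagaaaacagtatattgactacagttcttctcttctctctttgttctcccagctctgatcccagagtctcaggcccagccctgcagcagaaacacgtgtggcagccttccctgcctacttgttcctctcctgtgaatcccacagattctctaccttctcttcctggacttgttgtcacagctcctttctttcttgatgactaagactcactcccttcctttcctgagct
Casp4: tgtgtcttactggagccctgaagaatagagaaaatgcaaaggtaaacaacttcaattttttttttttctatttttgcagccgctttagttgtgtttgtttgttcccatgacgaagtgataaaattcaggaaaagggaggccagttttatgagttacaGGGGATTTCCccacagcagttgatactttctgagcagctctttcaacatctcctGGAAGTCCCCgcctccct
Casp12: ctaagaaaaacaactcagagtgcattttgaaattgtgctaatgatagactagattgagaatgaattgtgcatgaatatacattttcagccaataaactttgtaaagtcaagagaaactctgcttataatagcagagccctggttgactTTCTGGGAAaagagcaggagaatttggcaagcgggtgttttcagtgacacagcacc
Mlkl: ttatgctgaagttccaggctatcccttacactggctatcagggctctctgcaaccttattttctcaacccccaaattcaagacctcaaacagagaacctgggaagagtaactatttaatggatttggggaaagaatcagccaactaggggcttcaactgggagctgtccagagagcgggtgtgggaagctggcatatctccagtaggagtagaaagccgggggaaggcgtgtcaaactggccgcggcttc
Of the 10 genes, 9 had a RefSeq window, and *Gsdmd* had none. RefSeq listed 2 starts for *Nlrp3* and *Casp4*, of which 1 is shown. The 250 bases before the RefSeq start were read on both strands for 3 spellings. The NF-kB spelling was held by 4.65% of 32851 windows and matched *Casp4* alone among the 9 genes, at 93 to 84, 39 to 30 and 14 to 5 bases before the start. The last of these lies inside the gene by the deposited table and is not printed. The gamma-activated sequence was held by 7.02% of windows and matched *Casp12* at 102 to 94 and 36 to 28 bases before the start, the latter not printed, and *Ripk1* at 108 to 100 and 11 to 3. An interferon-stimulated response element (GAAA, 2 bases of any kind, GAAA) was held by 2.98% of windows and by none of the 9 genes. This depends on the choice of spelling and window. With 3 bases between, it was held by 2.38% of windows and matched *Casp8*, and with 2 bases it matched *Ripk1* in 300 bases. The 3 spellings are the ones kept from 11 scanned, of which 5 matched at least 1 of the genes in 250 bases. They were chosen after the matches were seen.

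The 18 libraries held 30688336 to 57139662 estimated counts, and the smallest was 1 of the SjSS controls. Levels are given as CPM, counts per 1000000 of the library total of tested genes scaled by edgeR's TMM factors, which were 1.10 to 1.13 in SjSS controls and 0.833 to 0.838 in AC treated SjSS BMDMs. A gene is said to have risen or fallen where edgeR's quasi-likelihood test gave an adjusted p under 0.05, and to have passed the fold threshold where its log2 fold change was also over 1.3 in size. Summed levels of 8 macrophage genes were 15100 to 23700 CPM per sample. Those of 12 T-lineage genes, which ACs could bring in, were 0.192 to 0.682 CPM in controls of both strains. They were 0.965 to 1.56 CPM with ACs. With CpG, where no ACs were given, they were 0.665 to 0.934 CPM in B6 and 0.296 to 0.799 CPM in SjSS. *Trac*, *Rag1* and *Dntt* were at 0 in B6 controls, *Rag1* in SjSS controls and *Themis* in AC treated SjSS samples. *Lck* had a mean of 0.651 CPM with ACs in SjSS, where the mean sum was 1.17 CPM, and 0.264 CPM in B6. *Rag1* and *Dntt* had means of 0.163 and 0.123 CPM with ACs in B6, against 0.0231 and 0.00701 CPM in SjSS. Of 4 stromal genes the sum was 22.2 to 68.6 CPM in B6 and 76.6 to 116 CPM in SjSS samples. The 3 dendritic cell genes in the table summed to 0.621 to 0.829 CPM in SjSS controls and 2.33 to 3.28 CPM with ACs. In B6 they summed to 0.709 to 0.753 CPM and 0.984 to 1.23 CPM, with *Flt3* at 0 with ACs. With CpG they summed to 1.15 to 1.41 CPM in B6 and 1.31 to 1.57 CPM in SjSS. In SjSS the mean of *Xcr1* went from 0.279 CPM in controls to 2.13 CPM with ACs. Those of *Zbtb46* and *Flt3* went from 0.353 to 0.515 CPM and from 0.0621 to 0.079 CPM. Of 6 neutrophil genes, 3 were in the table and summed to at most 2.74 CPM, with *Ngp* and *Camp* at 0 in SjSS controls, and 4 B cell genes summed to at most 1.12 CPM. What part these cells had in the results was not tested, and in bulk RNA fewer cells of a type and less RNA per cell cannot be told apart.

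*Nlrp3*, the sensor, rose in every treated group, and the size of its rise differed between strains with ACs. In B6 BMDMs its level was 58.6, 62.7 and 57.6 CPM in controls, 158, 192 and 186 CPM with ACs and 429, 425 and 358 CPM with CpG. In SjSS BMDMs it was 32.3, 38.1 and 37.4 CPM in controls, 351, 402 and 379 CPM with ACs and 197, 195 and 213 CPM with CpG. The 2 strains thus had opposite orders of treatment, CpG above AC in B6 and AC above CpG in SjSS, with no overlap between the treatments in either strain. AC treated SjSS and CpG treated B6 samples overlapped. With ACs *Nlrp3* rose 2.99-fold in B6 (log2 fold change 1.58, SE 0.086, edgeR adjusted p = 8.63e-11) and 10.5-fold in SjSS (3.39, SE 0.093, adjusted p = 6.78e-16). With CpG it rose 6.78-fold in B6 (2.76, SE 0.089, adjusted p = 9.31e-15) and 5.62-fold in SjSS (2.49, SE 0.090, adjusted p = 5.32e-14). Both responses in a strain were measured against the same 3 controls.

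*Pycard* (chr7:127989708-127993867, − strand) encodes the adaptor, and its level ranged from 60.2 to 65.3 CPM in B6 controls, 56.1 to 62.9 CPM with ACs and 63.3 to 71.1 CPM with CpG, and from 53.8 to 65.2, 57.5 to 65.7 and 64.3 to 72.8 CPM in the same groups of SjSS. With the groups ordered by their means, samples of every pair of neighbours overlapped. The AC response had a 95% interval of −0.24 to 0.07 in B6 and −0.09 to 0.22 in SjSS on the log2 scale, and neither passed the test. The SjSS value turned to −0.35 when libraries were scaled by their totals with no TMM factor. With CpG *Pycard* rose by a log2 fold change of 0.21 in SjSS (SE 0.075, edgeR adjusted p = 0.0222), although its samples overlapped those of controls, and the value in B6 was 0.11 (adjusted p = 0.238). The rise in SjSS no longer passed without SjSS control 2 (0.14), SjSS CpG 2 (0.20) or SjSS CpG 3 (0.17), or with no TMM factor (0.083).

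*Casp1*, which encodes the caspase that matures interleukin-1β, had a level of 64.6, 63.0 and 56.6 CPM in B6 controls, 72.7, 75.5 and 76.4 CPM with ACs and 90.0, 92.8 and 93.4 CPM with CpG. SjSS BMDMs held 57.3, 57.7 and 51.2 CPM in controls, 159, 156 and 168 CPM with ACs and 101, 83.9 and 96.6 CPM with CpG. AC treated SjSS samples thus lay above all others, and the CpG groups of the 2 strains overlapped. *Casp1* rose with ACs 1.22-fold in B6 (log2 fold change 0.29, SE 0.068, edgeR adjusted p = 0.00236) and 2.90-fold in SjSS (1.54, SE 0.069, adjusted p = 4.79e-13). With CpG it rose by 0.58 on the log2 scale in B6 (adjusted p = 4.49e-07) and by 0.76 in SjSS (adjusted p = 1.81e-08).

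*Casp4*, which encodes caspase-11, had the same order of treatments as *Nlrp3* in both strains. Its level in B6 was 15.1, 15.1 and 15.2 CPM in controls, 33.9, 36.7 and 39.8 CPM with ACs and 48.1, 59.9 and 54.6 CPM with CpG. In SjSS it was 8.84, 9.20 and 7.78 CPM in controls, 90.9, 101 and 93.9 CPM with ACs and 37.1, 32.2 and 35.8 CPM with CpG. No treated group overlapped its own controls, and AC treated SjSS samples lay above all others. *Casp4* rose with ACs 2.43-fold in B6 (log2 fold change 1.28, SE 0.084, edgeR adjusted p = 9.26e-10) and 11.1-fold in SjSS (3.47, SE 0.091, adjusted p = 4.77e-16). With CpG it rose 3.58-fold in B6 (adjusted p = 9.49e-13) and 4.08-fold in SjSS (adjusted p = 7.79e-13).

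*Casp12*, the third gene of the cluster, encodes a caspase of the same family, and its counts were low, 690 over all samples. In B6 it had 42, 58 and 39 counts in controls, 8, 26 and 15 with ACs and 31, 2 and 25 with CpG. In SjSS it had 31, 22 and 27 counts in controls, 107, 95 and 117 with ACs and 15, 16 and 14 with CpG. Outside AC treated SjSS BMDMs, 13 of 15 samples held 10 counts or more, and AC treated SjSS samples lay above all others. With ACs the gene fell in B6 (log2 fold change −1.36, SE 0.47, edgeR adjusted p = 0.0276), from 0.858 ± 0.305 to 0.328 ± 0.167 CPM (SD, n = 3), and rose in SjSS (2.12, SE 0.43, adjusted p = 0.000338), from 0.570 ± 0.081 to 2.46 ± 0.408 CPM. The fall in B6 did not pass without B6 AC 1 (−1.03), B6 AC 3 (−1.37) or B6 control 2 (−1.04), nor with libraries thinned to the smallest total (−1.16). With CpG the values were −1.01 in B6 (adjusted p = 0.0679) and −0.69 in SjSS (adjusted p = 0.26). The B6 value was called without B6 CpG 1 (−1.44), by DESeq2 and with no TMM factor (−1.18), and it was −0.54 at its highest when samples were left out in turn, without B6 CpG 2.

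*Gsdmd* (chr15:75862339-75867404) encodes the pore former that caspase-1 and caspase-11 cut. Its level was 47.1, 44.6 and 47.7 CPM in B6 controls and 48.8, 51.0 and 52.2 CPM with ACs, against 52.0, 51.3 and 51.7 CPM and 80.7, 76.9 and 78.3 CPM in SjSS. CpG treated samples held 53.4 to 57.8 CPM in B6 and 53.0 to 54.9 CPM in SjSS. AC treated SjSS samples were higher than all others, and the CpG groups overlapped. The rise with ACs was 1.52-fold in SjSS (log2 fold change 0.60, SE 0.048, edgeR adjusted p = 1.96e-09) and 1.09-fold in B6 (0.12, SE 0.048, adjusted p = 0.0469). The rise in B6 was 0.05 and not called with no TMM factor, and it was lost without B6 AC 2 (0.12), B6 AC 3 (0.10), B6 control 1 (0.13) or B6 control 2 (0.10). It was also lost with DESeq2 size factors in edgeR (0.12), no filter on low counts (0.12) and only the compared groups (0.11). With CpG *Gsdmd* rose by 0.26 on the log2 scale in B6 (adjusted p = 0.0001), which was 0.082 and not called with no TMM factor, and its value in SjSS was 0.06 (adjusted p = 0.283).

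*Casp8*, whose product holds necroptosis in check, rose with ACs in SjSS. Its level was 96.9, 97.4 and 95.6 CPM in B6 controls and 88.9, 91.9 and 91.0 CPM with ACs, without overlap. In SjSS it was 92.9, 88.3 and 90.4 CPM in controls and 144, 146 and 142 CPM with ACs, above all other samples. The response was 1.59-fold in SjSS (log2 fold change 0.67, SE 0.058, edgeR adjusted p = 7.91e-09), and in B6 it was −0.09 with a 95% interval of −0.22 to 0.03. CpG treated samples held 82.7 to 93.3 CPM in B6 and 73.4 to 86.2 CPM in SjSS. With CpG *Casp8* fell by 0.14 on the log2 scale in B6 (adjusted p = 0.0497) and by 0.15 in SjSS (adjusted p = 0.0377). The fall in B6 was −0.14 with the replicate number as a block and no longer passed, and it was lost in 5 of 6 fits that left out 1 sample (−0.18 to −0.09), all but the one without B6 CpG 2. The B6 fall also no longer passed by DESeq2 (−0.11), with its size factors in edgeR (−0.11) or after thinning (−0.13). Nor did it pass with a filter of 10 counts in 3 samples (−0.14) or with only the compared groups (−0.14). In SjSS the fall was lost without SjSS control 1 (−0.13), SjSS control 3 (−0.15) or SjSS CpG 2 (−0.08), and with only the compared groups (−0.15). *Casp8* lies at chr1:58795374-58847503, and the *Idd5* interval is on chromosome 1 as well, but whether the gene is inside the NOD segment was not analysed here. The nearest tested gene before it is *Cflar*, which encodes an inhibitor of caspase-8 and lies 36.5 kb away, and the nearest after it is *Trak2*, 52.9 kb away.

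*Ripk1* (chr13:34002363-34035170), the kinase downstream of the TNF receptor, had a level of 157, 166 and 154 CPM in B6 controls, 146, 153 and 152 CPM with ACs and 126, 126 and 123 CPM with CpG. SjSS BMDMs held 182, 184 and 175 CPM in controls, 148, 148 and 145 CPM with ACs and 141, 137 and 132 CPM with CpG. Treated samples were below their controls in both strains, and the AC groups of the 2 strains overlapped. *Ripk1* fell with ACs by 0.30 on the log2 scale in SjSS (SE 0.045, edgeR adjusted p = 1.38e-05), while the value in B6 was −0.08 (adjusted p = 0.174). It fell with CpG by 0.34 in B6 (adjusted p = 2.15e-06) and by 0.40 in SjSS (adjusted p = 3.34e-07). The gene overlaps *Serpinb6a* of the opposite strand over 432 bases, and the strand setting of the counting is not given in the sources used here. *Serpinb6a* held 374062 counts against 127830 of *Ripk1*, and it fell by 1.11 with CpG in B6 and by 1.00 in SjSS but rose by 0.42 with ACs in B6.

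*Ripk3* (chr14:55784996-55788857, − strand), the kinase that activates MLKL, rose with ACs and fell with CpG in SjSS. Its level was 19.0, 19.0 and 19.0 CPM in B6 controls, 22.6, 21.1 and 20.7 CPM with ACs and 14.5, 14.1 and 12.2 CPM with CpG. In SjSS it was 16.9, 18.5 and 18.8 CPM in controls, 21.9, 24.4 and 23.4 CPM with ACs and 11.7, 13.8 and 14.2 CPM with CpG. CpG treated samples were the lowest in both strains and the 2 CpG groups overlapped. With ACs *Ripk3* rose 1.29-fold in SjSS (log2 fold change 0.36, SE 0.080, edgeR adjusted p = 0.000701), and the value in B6 was 0.17 (adjusted p = 0.096). With CpG it fell by 0.49 in B6 (adjusted p = 4.09e-05) and by 0.45 in SjSS (adjusted p = 0.000131). Scaled by library totals with no TMM factor, the AC response in SjSS turned to −0.05.

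*Mlkl*, the executioner of necroptosis, was 15.6, 18.1 and 15.6 CPM in B6 controls, 23.3, 26.3 and 25.8 CPM with ACs and 24.6, 29.0 and 27.1 CPM with CpG. SjSS BMDMs held 15.4, 16.0 and 13.8 CPM in controls, 63.7, 63.8 and 68.6 CPM with ACs and 25.2, 21.4 and 27.9 CPM with CpG. AC treated SjSS samples stood above all others, and AC and CpG treated B6 and CpG treated SjSS samples overlapped. *Mlkl* rose with ACs 1.53-fold in B6 (log2 fold change 0.61, SE 0.092, edgeR adjusted p = 3.14e-05) and 4.34-fold in SjSS (2.12, SE 0.094, adjusted p = 4.11e-13). With CpG it rose 1.64-fold in B6 (adjusted p = 1.96e-06) and 1.65-fold in SjSS (adjusted p = 2.42e-06).

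**Figure D1:**
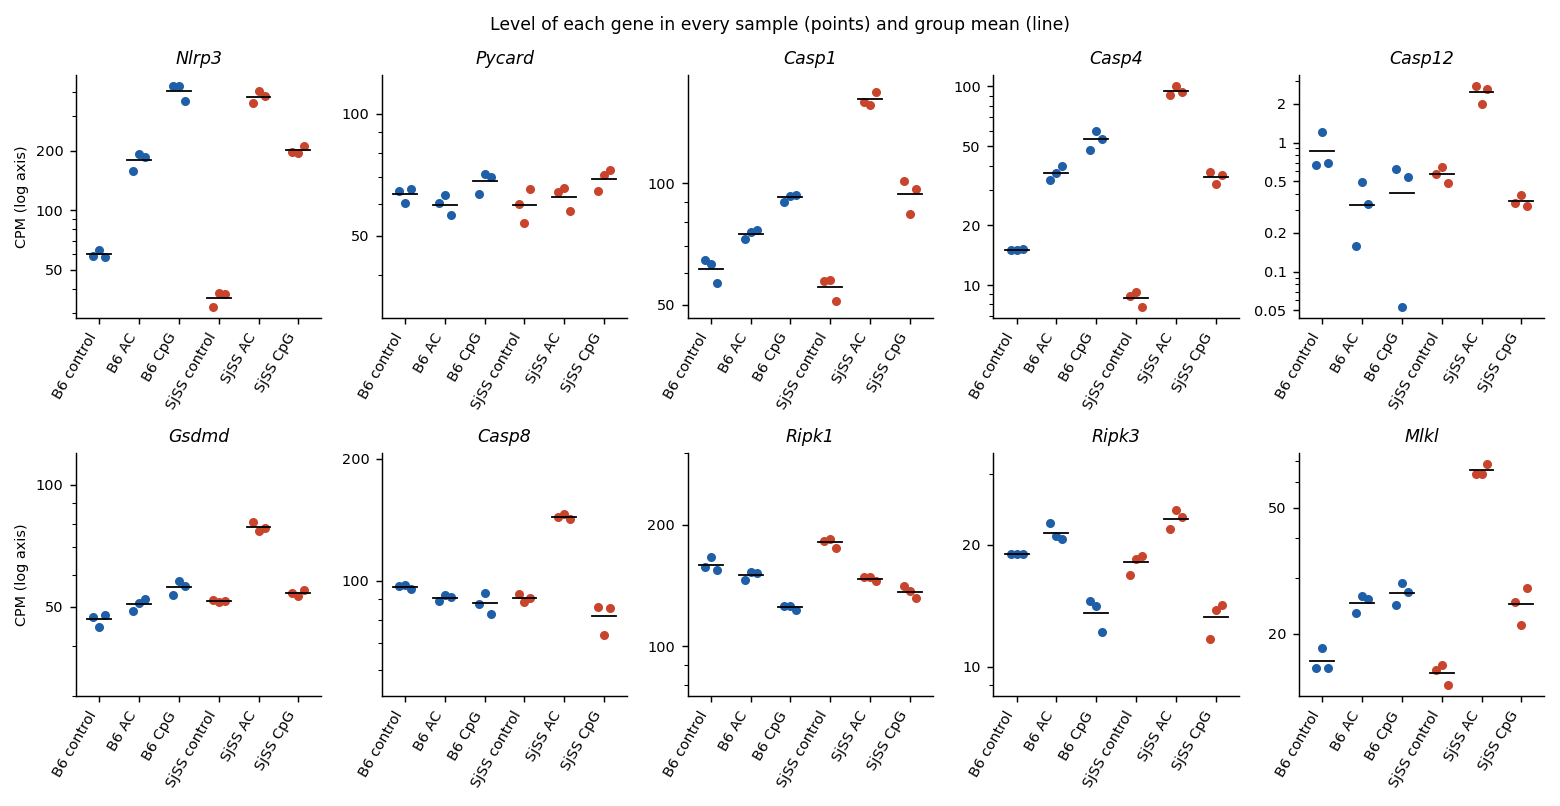
CPM of each gene in the 18 samples on a log axis with its own range in each panel, with points for samples (blue B6, red SjSS) and lines for means of 3. AC treated SjSS samples lie above all others for *Casp1*, *Casp4*, *Casp12*, *Gsdmd*, *Casp8* and *Mlkl*, and *Nlrp3* is at 351 to 402 CPM there against 358 to 429 CPM in CpG treated B6.

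Per kilobase of the longest protein-coding transcript, *Casp1* had the highest mean of the 10 genes in controls, at 41.0 ± 2.84 CPM per kb in B6 and 37.0 ± 2.43 in SjSS (SD, n = 3). In SjSS controls *Casp8*, at 35.0 ± 0.881 CPM per kb, did not differ from it beyond this spread. *Casp12* was the lowest in every group, at 0.124 to 0.930 CPM per kb. *Nlrp3* ranked 6th in B6 controls at 14.8 ± 0.678 CPM per kb and 1st in CpG treated B6 at 101 ± 9.89. In AC treated SjSS BMDMs *Casp1* led at 107 ± 4.10 CPM per kb, before *Nlrp3* at 93.8 ± 6.25 and *Casp4* at 66.4 ± 3.61. *Pycard*, at 16.6 ± 0.705 CPM per kb in B6 controls, was divided by a transcript of 3800 bases, which is all of its exon bases. A shorter transcript would raise its level and could change the order. These levels depend on which transcript was used, which the counts do not show.

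Counted together, 5 of the 10 genes rose and 1 fell with ACs in B6, where 20.0% of all tested genes rose and 18.3% fell. In SjSS 8 rose and 1 fell, against 28.6% and 29.4% of all genes. Past the fold threshold, *Nlrp3* rose and *Casp12* fell in B6 (2.43% and 2.04% of all genes), and *Nlrp3*, *Casp1*, *Casp4*, *Casp12* and *Mlkl* rose in SjSS (7.09%). The median log2 fold change of the 10 genes was 0.15 in B6 and 1.10 in SjSS, and that of all tested genes was 0.0015 and −0.02. Scaled by library totals with no TMM factor, the median of all genes moved by −0.07 in B6 and −0.41 in SjSS, and of the 10 genes 4 were then called higher and 3 lower with ACs in B6, against 7 and 2 in SjSS. *Casp4*, *Nlrp3*, *Casp12* and *Mlkl* are in gene lists that the study drew from these AC treated SjSS samples, so their rise there is not independent evidence of direction. With CpG 5 genes rose and 3 fell in each strain, at a background of 28.1% and 29.8% in B6 and 27.8% and 26.4% in SjSS. *Nlrp3* and *Casp4* were those past the fold threshold in both strains (5.86% of all genes in B6 and 4.81% in SjSS). The medians of the 10 genes with CpG were 0.18 and 0.14, and those of all tested genes −0.04 and −0.01. With no TMM factor the median of all genes moved by −0.18 in B6 and −0.13 in SjSS, and 4 genes were higher and 4 lower in B6, against 4 and 3 in SjSS.

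**Figure D2:**
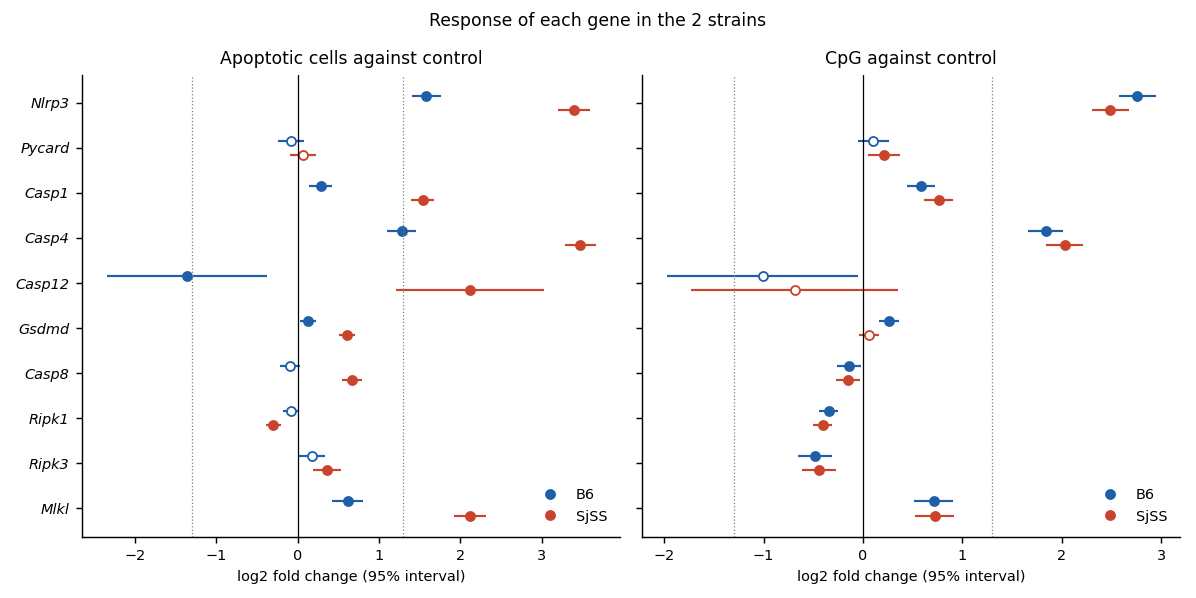
Log2 fold changes with 95% intervals for the response to ACs (left) and to CpG (right) in B6 (blue) and SjSS (red), filled where adjusted p was under 0.05, with dotted lines at a log2 fold change of 1.3. With ACs the SjSS points of *Nlrp3*, *Casp1*, *Casp4*, *Casp12* and *Mlkl* lie past 1.3, and with CpG those of *Nlrp3* and *Casp4* do in both strains.

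The difference of the AC response between strains was tested as an interaction, the log2 response in SjSS minus that in B6. It was positive for 7 of the 10 genes and negative for 1, *Ripk1*, which fell further in SjSS, against 19.6% and 18.3% of all genes. With no TMM factor the median of all genes moved by −0.34, and *Gsdmd* (0.14) was no longer called. The interaction was 3.48 on the log2 scale for *Casp12* (SE 0.64, edgeR adjusted p = 0.000264), 2.19 for *Casp4* (SE 0.12, adjusted p = 1.2e-10), 1.81 for *Nlrp3* (SE 0.12, adjusted p = 1.23e-09) and 1.51 for *Mlkl* (SE 0.13, adjusted p = 3.28e-08), the 4 past the fold threshold (4.76% of all genes). It was 1.25 for *Casp1*, 0.76 for *Casp8* and 0.48 for *Gsdmd*, and −0.22 for *Ripk1* (adjusted p = 0.012). *Pycard* (0.15, 95% interval −0.08 to 0.37) and *Ripk3* (0.19, −0.05 to 0.43) did not pass. For CpG none of the 10 genes passed by edgeR, at a background of 3.23% higher and 2.62% lower. Of these, *Nlrp3* and *Gsdmd* had an unadjusted p under 0.05, and DESeq2's Wald test called *Gsdmd* (−0.22). The CpG intervals were −0.52 to −0.02 for *Nlrp3* and −0.06 to 0.45 for *Casp4*, and that of *Casp12* ran from −1.11 to 1.75.

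Set against B6 within each condition, untreated SjSS BMDMs held less *Nlrp3* (1.66-fold lower, log2 difference −0.73, SE 0.087, edgeR adjusted p = 1.05e-05) and less *Casp4* (1.77-fold lower, −0.82, SE 0.090, adjusted p = 4.23e-06). *Gsdmd* (0.15, adjusted p = 0.0299) and *Ripk1* (0.18, adjusted p = 0.0073) were higher, so that 2 genes were higher and 2 lower where 9.04% and 10.6% of all genes were. The *Gsdmd* difference was lost in 5 of 6 fits that left out 1 sample, all but the one without B6 control 3, with values of 0.13 to 0.17. With ACs 7 genes were higher in SjSS and none lower, at a background of 24.0% and 25.5%. *Casp12* (7.41-fold, adjusted p = 3.5e-05), *Mlkl* (2.60-fold, adjusted p = 2.97e-10) and *Casp4* (2.59-fold, adjusted p = 6.49e-11) passed the fold threshold (6.24%), followed by *Casp1* (2.15-fold), *Nlrp3* (2.11-fold), *Casp8* (1.59-fold) and *Gsdmd* (1.55-fold). *Pycard*, *Ripk1* and *Ripk3* overlapped between the strains, with values of 0.06, −0.03 and 0.12. With no TMM factor the median of all genes moved by −0.30 and these 3 genes were called lower, so that the split was 7 and 3. With CpG *Nlrp3* (2.00-fold lower, adjusted p = 1.27e-07) and *Casp4* (1.55-fold lower, adjusted p = 2.09e-05) were again lower in SjSS and none was higher, at a background of 10.2% higher and 9.57% lower. *Ripk1* was called higher with no TMM factor (0.22) or without SjSS CpG 3 (0.15). *Nlrp3* and *Casp4* were therefore below B6 without treatment and with CpG, and above B6 with ACs, with no overlap of samples in any of the 3 conditions.

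**Figure D3:**
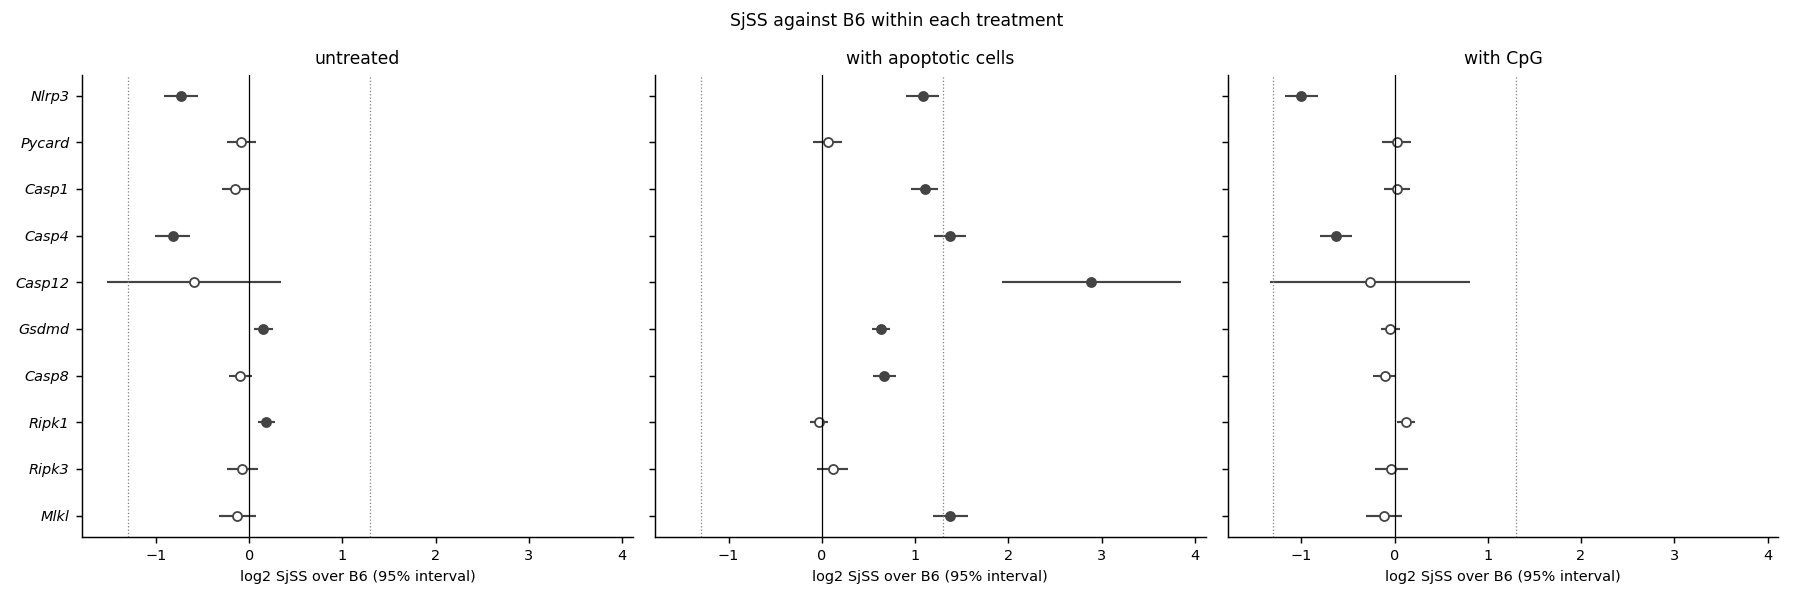
Log2 difference of SjSS over B6 with 95% intervals for each gene in controls, with ACs and with CpG, filled where adjusted p was under 0.05. *Nlrp3* and *Casp4* are on the left of 0 in controls and with CpG and on the right with ACs, and the interval of *Casp12* is the widest in each panel.

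Around these genes, 57 others of the same pathways were followed, of which 53 were tested. With ACs 21 rose and 13 fell in B6 (median log2 fold change 0.07), where 20.0% of all tested genes rose and 18.3% fell, and 31 rose and 15 fell in SjSS (0.41), where 28.6% rose and 29.4% fell. The 15 that fell in SjSS are a share near that of all genes. With CpG 26 rose and 14 fell in B6 (0.17; 28.1% and 29.8% of all genes), and 30 rose and 16 fell in SjSS (0.30; 27.8% and 26.4%). The interaction with ACs was positive for 26 of the 53 and negative for 5 (19.6% and 18.3% of all genes), and that with CpG was positive for 2 and negative for 6 (3.23% and 2.62%). A negative interaction could be a smaller rise or a larger fall in SjSS.

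All 3 substrates rose with ACs in SjSS. *Il1b*, which encodes pro-interleukin-1β, was 4.29, 4.36 and 7.14 CPM in B6 controls, 40.0, 60.5 and 54.0 CPM with ACs and 1260, 1040 and 785 CPM with CpG. In SjSS it was 1.33, 2.31 and 2.28 CPM in controls, 122, 131 and 132 CPM with ACs and 109, 96.1 and 123 CPM with CpG. Its log2 fold change with ACs was 3.29 in B6 and 6.05 in SjSS, and with CpG it was 7.61 in B6 and 5.82 in SjSS, a response smaller in SjSS by 1.79 (edgeR adjusted p = 0.00359). Set against B6, *Il1b* had a log2 difference of −1.44 in untreated SjSS (adjusted p = 0.00104) and of −3.23 with CpG (adjusted p = 9.81e-10). *Il1a*, which encodes interleukin-1α, rose by 2.00 with ACs in B6 and 5.05 in SjSS, and by 4.53 and 3.16 with CpG. *Il18*, the other cytokine matured by caspase-1, rose by 1.96 with ACs in SjSS, and its value in B6 was −0.10 (adjusted p = 0.714). With CpG it rose by 1.43 in B6 (edgeR adjusted p = 8.19e-07), to a mean of 7.92 CPM, against 7.59 CPM with ACs in SjSS. The mean in SjSS was 1.95 CPM in controls and 5.05 CPM with CpG.

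Among 12 tested sensors and scaffolds, 2 rose and 6 fell with ACs in B6, where 20.0% of all genes rose and 18.3% fell. In SjSS 3 rose and 7 fell, against 28.6% and 29.4% of all genes. The shares that rose were near those of all genes, and the shares that fell were larger. *Mefv*, which encodes the sensor pyrin, rose by 2.37 and 3.28 on the log2 scale. Its level was nonetheless lower in SjSS than in B6 in every condition, without overlap. It was 12.7 to 16.0 CPM in SjSS controls and 32.1 to 37.6 CPM in B6 controls. With ACs it was 131 to 139 CPM against 158 to 188 CPM, and with CpG 84.2 to 101 CPM against 123 to 143 CPM. *Aim2*, a sensor of cytosolic DNA, fell by 0.39 in B6 and rose by 1.28 in SjSS, with an interaction of 1.68 (edgeR adjusted p = 2.78e-09). *Nlrp1b*, another sensor that recruits caspase-1, fell by 1.04 and 1.61 with ACs and by 2.32 and 2.29 with CpG. *Nlrc4*, which answers bacterial flagellin through NAIP proteins, rose with CpG by 0.92 in B6 and 0.65 in SjSS, and its AC values of 0.11 and 0.06 did not pass. With CpG *Nlrp10* fell by 1.45 in B6 and 1.22 in SjSS, and *Nlrc3* by 1.31 and 1.15.

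Of 10 regulators of inflammasomes, 5 rose and 2 fell with ACs in B6 (20.0% and 18.3% of all genes) and 6 rose and 2 fell in SjSS (28.6% and 29.4%). The guanylate-binding protein genes *Gbp5* and *Gbp2*, whose products act on pathogen membranes upstream of caspase-11 and of inflammasomes, had the largest interactions of the list with ACs. *Gbp5* was 4.21, 4.09 and 3.43 CPM in B6 controls and 36.3, 49.7 and 50.6 CPM with ACs, against 3.56, 4.85 and 3.10 CPM and 1350, 1250 and 1240 CPM in SjSS. The rise was 3.54 in B6 and 8.42 in SjSS on the log2 scale (interaction 4.88, edgeR adjusted p = 4.58e-10), and with CpG it was 4.55 and 3.76. *Gbp2* rose by 0.98 and 5.74 (interaction 4.75, adjusted p = 5.86e-12), and *Gm12250*, an immunity-related GTPase gene, by 2.00 and 5.00.

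Among 5 tested executioners, *Ninj1*, which encodes the protein that ruptures the membrane after pores have formed, rose with ACs by 0.39 in B6 and 0.99 in SjSS. *Dfna5*, the symbol in the table for *Gsdme*, encodes another gasdermin, and it fell with ACs by 0.49 in B6 and 0.55 in SjSS.

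In the death receptor and necroptosis group of 9, 6 rose and none fell with ACs in B6 (20.0% and 18.3% of all genes), and 6 rose and 2 fell in SjSS (28.6% and 29.4%). *Cflar* was 145, 157 and 143 CPM in B6 controls and 224, 280 and 288 CPM with ACs, against 174, 175 and 135 CPM and 854, 821 and 886 CPM in SjSS. It rose by 0.83 in B6 and 2.40 in SjSS (interaction 1.57, edgeR adjusted p = 4.05e-08), while *Trak2* on the other side had an interaction of 0.03 (adjusted p = 0.839). *Zbp1*, a nucleic acid sensor that binds RIPK3, rose by 1.21 and 3.43 with ACs (interaction 2.22, adjusted p = 3.71e-06). *Fadd*, the adaptor of caspase-8, fell by 0.53 in SjSS, and its value in B6 was −0.10 (adjusted p = 0.376). With CpG *Cflar* rose by 2.06 and *Zbp1* by 2.25 in B6. In CpG treated SjSS samples *Cflar* was 476 to 565 CPM. *Zbp1* was 40.9 to 79.7 CPM there, against 18.9 to 21.8 CPM in SjSS controls.

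Of 14 genes for the ubiquitin control of RIPK1, 5 rose and 1 fell with ACs in B6 (20.0% and 18.3% of all genes) and 10 rose and 2 fell in SjSS (28.6% and 29.4%). *Tnfaip3*, which encodes the ubiquitin-editing enzyme A20, rose by 1.47 and 3.31 on the log2 scale (interaction 1.85, edgeR adjusted p = 3.58e-09). With CpG *Tnfaip3* rose by 2.68 in B6, and in SjSS it was 307 to 318 CPM, against 38.5 to 54.7 CPM in controls. *Birc3*, which encodes a ubiquitin ligase of RIPK1, rose by 1.24 and 2.11 with ACs (interaction 0.86, adjusted p = 1.09e-05) and by 2.27 and 2.28 with CpG.

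**Figure D4:**
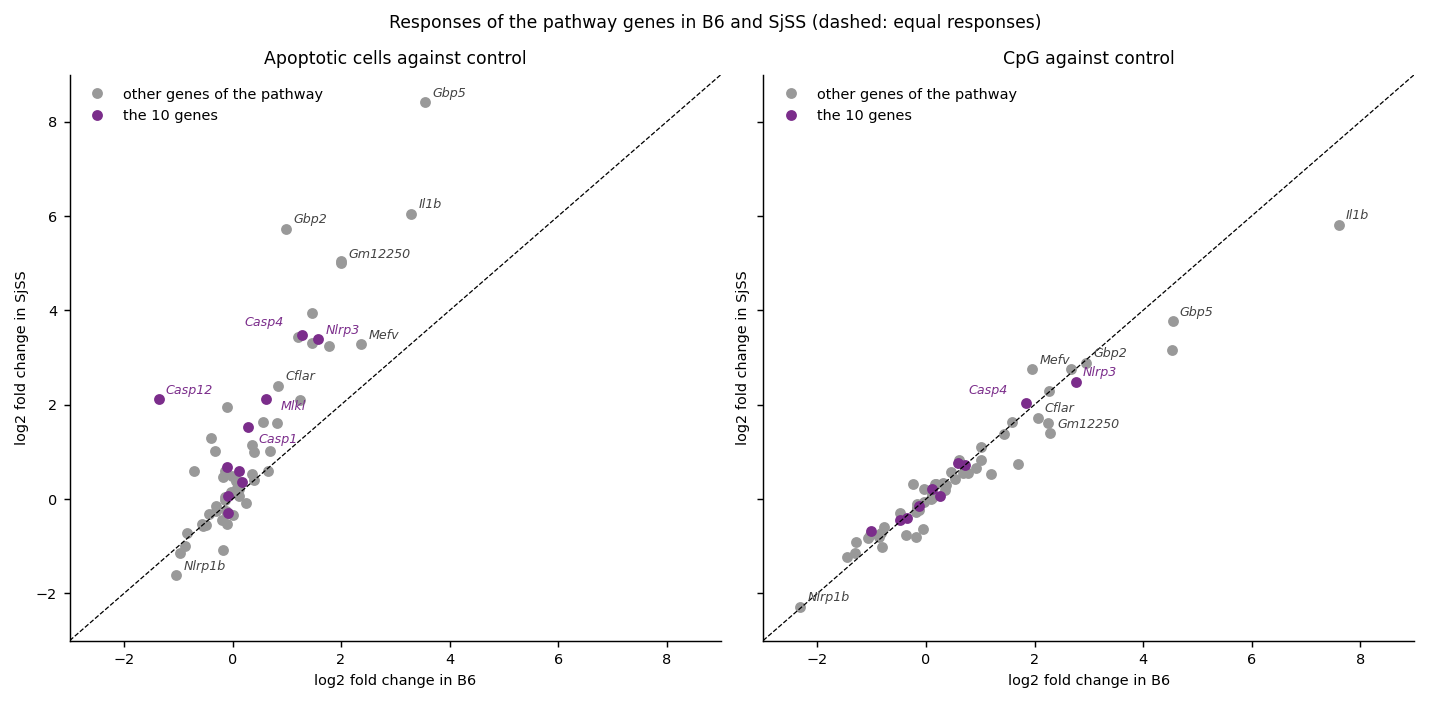
Log2 fold change in B6 (x) and in SjSS (y) with ACs (left) and CpG (right) for the 10 genes (purple) and the 53 other tested pathway genes (grey), with a dashed line of equal responses. With ACs *Gbp5* and *Gbp2* lie farthest above the line, and with CpG *Il1b* lies below it at 7.61 and 5.82.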

How the data were processed

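BMDMs of 6 groups with 3 samples each were profiled by RNA-seq. The deposited values are estimated counts per gene, which the authors made with STAR alignment to mm10 and Partek's expectation-maximisation quantification, per the labels and methods. The annotation version and strand setting are not given in the sources used here. Since 41.1% of them departed from a whole number by more than 1e-06, they were rounded before testing.

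Counts of all 18 samples, 30688336 to 57139662 per sample, were analysed with edgeR 4.0.16 in R 4.3.3: filterByExpr kept 15789 of 20615 genes, TMM factors were used, 1 mean was fitted per group, and quasi-likelihood tests gave p values adjusted by Benjamini-Hochberg over all tested genes in each of 9 comparisons. SE is the size of the log2 fold change divided by the square root of F. CPM is the rounded count per 1000000 of the scaled total of tested genes. Alternatives were DESeq2 1.42.0, its size factors, no TMM factor, no filter or at least 10 counts in 3 samples, only the compared groups, a replicate block, thinning to the smallest total, and leaving out each sample. The edgeR and DESeq2 steps were tested on simulated data. Replicates of a group differed by more than sampling noise (chi-square per degree of freedom 7.82 to 31.9), and no library was counted as a repeat. This measure cannot show that the samples of a group came from different mice, for which the sources are the paper's figure legends.

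Named were the 10 genes, the fixed pathway genes (some of which are not reported here), in each comparison the 3 largest increases and 3 largest decreases of the pathway list past the fold threshold without overlap of samples, the 3 genes most like each of the 10, and the neighbours of *Casp8*. The members and lists were chosen with earlier results of these data known. A gene's end is the deposited stop minus 1, because that stop was 1 past the GENCODE M21 end for 88.3% of 19835 matched genes. Promoter windows came from RefSeq, and lengths for levels per kb from the longest basic coding transcript of GENCODE M21.

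Deviations from group means were correlated between samples of the same number. In B6, controls and CpG samples of equal number had r of 0.26, 0.264 and 0.137, all over 0.1. No correlation was computed between samples of unequal number, so these values cannot show that equal numbers share a mouse. The labels do not pair samples, and the main fit had no replicate block.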

Additional observations from a re-analysis of the deposited data

Results flagged for a closer look

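The results here are those for which a test of the difference itself gave an edgeR adjusted p under 0.05 between the responses of the 2 strains. Values are the response in SjSS minus that in B6 on the log2 scale, over 3 samples in each of the 4 groups of a comparison. The AC and CpG values of a strain share their controls.

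For ACs the difference was 3.48 for *Casp12*, 2.19 for *Casp4*, 1.81 for *Nlrp3*, 1.51 for *Mlkl*, 1.25 for *Casp1*, 0.76 for *Casp8* and 0.48 for *Gsdmd*, and it was −0.22 for *Ripk1*. Among sensors and regulators it was 4.88 for *Gbp5*, 4.75 for *Gbp2*, 3.00 for *Gm12250*, 1.68 for *Aim2*, 0.91 for *Mefv* and −0.57 for *Nlrp1b*. For the substrates it was 3.05 for *Il1a*, 2.76 for *Il1b* and 2.06 for *Il18*. For the executioner *Ninj1* it was 0.60. In the death receptor branch it was 2.22 for *Zbp1*, 1.85 for *Tnfaip3*, 1.57 for *Cflar*, 0.86 for *Birc3* and −0.43 for *Fadd*.

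For CpG none of the 10 genes passed by edgeR, and DESeq2 called *Gsdmd*. Among the named pathway genes the difference was −1.79 for *Il1b*, −1.37 for *Il1a*, −0.62 for *Aim2* and 0.80 for *Mefv*.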

How the results depend on the processing

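Of 1440 alternative values for the 10 genes, 1354 kept their direction and side of the threshold, 42 lost a call, 9 gained one and 35 changed sign. The cause was not tested for any of them. With a log2 fold change over 1.3 as well, the higher counts were 1 and 5 for ACs in B6 and SjSS, 2 and 2 for CpG, 0 untreated, 3 between strains with ACs and 4 for the AC interaction, and the lower counts were 0 for ACs in SjSS, CpG in both strains, untreated, between strains with CpG and the AC interaction. With no TMM factor the lower counts were 3 for ACs in B6, 2 for ACs in SjSS and 3 between strains with ACs, and 1 gene was higher between strains with CpG. Values that changed sign with no TMM factor were *Pycard* (−0.35 for ACs in SjSS, −0.075 for CpG in B6, −0.24 between strains with ACs, −0.20 for the AC interaction), *Ripk3* (−0.051 for ACs in SjSS, 0.060 between strains with CpG, −0.19 between strains with ACs, −0.15 for the AC interaction), *Gsdmd* (−0.066 for CpG in SjSS, 0.047 between strains with CpG) and *Casp8* (0.041 for the CpG interaction). Thinning left 0 genes lower with ACs in B6. With no filter, or with only the compared groups, 1 gene was higher untreated, since *Gsdmd* (0.14 and 0.17) was lost. DESeq2 called 1 gene lower for the CpG interaction. For the CpG interaction *Casp8* was 0.0006 with no filter, and *Mlkl* was −0.0146 with DESeq2, −0.0143 with its size factors in edgeR and −0.0215 after thinning.

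Leaving out 1 sample at a time, the lower count for ACs in B6 ranged from 0 to 1 and the higher count from 4 to 5. The higher count untreated ranged from 1 to 2 and the higher count between strains with CpG from 0 to 1. For the CpG response the lower count ranged from 2 to 3 in both strains, and the higher count from 4 to 5 in SjSS. Signs changed within −0.0031 to 0.13 for *Pycard* with ACs in SjSS. Between strains with CpG they changed within −0.029 to 0.10 for *Casp1*, −0.74 to 0.16 for *Casp12*, −0.027 to 0.074 for *Pycard* and −0.13 to 0.045 for *Ripk3*. For the CpG interaction they changed within −0.0747 to 0.0595 for *Casp8*, −0.15 to 0.75 for *Casp12*, −0.053 to 0.12 for *Ripk3* and −0.081 to 0.11 for *Mlkl*.

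With the replicate block, *Casp8* (−0.14 for CpG in B6) and *Gsdmd* (0.12 for ACs in B6) lost their calls, and with the block nested within strain *Gsdmd* (0.12) did. No other call of the 10 genes changed with either block. Same-numbered samples of a strain had r of 0.0198 to 0.264 over 18 pairs, 9 of them over 0.1, and those of different strains −0.0939 to 0.0596 over 27 pairs. Depth limits *Casp12* most, whose samples outside AC treated SjSS BMDMs held 2 to 58 counts.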

Other observations

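The genes whose log2 CPM followed each of the 10 genes most closely are given as a description, by Pearson's r over the 18 samples, which share 6 groups and their scaling. *Nlrp3* was followed by *Marcksl1* (r = 0.992), *Pstpip2* (0.992) and *Fam102b* (0.986), and *Casp1* by *Zfp800* (0.992), *Tor3a* (0.992) and *Arf4* (0.990). For *Casp4* the nearest were *Gch1* (0.989), *Nfkb1* (0.987), which encodes an NF-kB subunit, and *Wdr43* (0.987). *Mlkl* was followed by *Ifih1* (0.991), which encodes the RNA sensor MDA5, *Zufsp* (0.989) and *Parp14* (0.987). *Casp8* had *Snx2* (0.978), *Pi4k2a* (0.973) and *Frmd4a* (0.973), and *Gsdmd* had *Lrch3* (0.988), *Whamm* (0.983) and *Tmem229b* (0.981). *Ripk1* had *Arrdc3* (0.972), *Kif13b* (0.97) and *Stxbp5* (0.964), and *Ripk3* had *Mpi* (0.948), *Akr1b3* (0.944) and *Cd68* (0.94). The nearest genes were less alike for *Casp12*, with *Ciita* (0.888), which encodes the activator of MHC class II genes, *Rpl17* (0.874) and *Rps6ka5* (0.867). They were also less alike for *Pycard*, with *Gm17383* (0.845), *Cmtm7* (0.812) and *Gm42585* (0.805).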
